A study of Mus musculus with 6 samples.

Results

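The proteasome genes of a mouse liver line with and without the DNAJ-PKAc fusion are described here. Members were the genes of the count table whose symbol begins with Psma, Psmb, Psmc, Psmd, Psme, Psmf or Psmg and a digit, without the immunoproteasome subunits Psmb8, Psmb9 and Psmb10, and with at least 10 counts summed over the libraries. The names matched 47 of 24054 genes, and 45 were members, since Psma8 and Psmb11 had no count. One member, Psmc3ip, codes for a partner of a meiotic recombination factor and is no proteasome subunit, so it is kept apart and the text speaks of 44 proteasome genes. These were 14 genes of the catalytic core, 17 of the regulatory cap, 7 assembly chaperones, and 6 genes of activators and of the inhibitor protein PI31. The rule uses names and summed counts and no difference between the lines, and all 45 members passed the count filter of the test.

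The study sequenced total RNA of TIBx, whose cell type the labels give as liver BNL 1ME A.7R.1, a chemically transformed mouse liver line. The group WT is the parental line, and the group DNAJ-PKAc is a derived line of that genotype. DNAJ-PKAc joins the start of the co-chaperone DNAJB1 to the catalytic subunit of protein kinase A and is the defining lesion of fibrolamellar carcinoma. Both lines were grown in DMEM with serum, glutamine and pyruvate, and no drug is named. Each group had 3 libraries, called A to C as in the labels, and the labels do not tell whether these are separate cultures. A p-value then reflects library-to-library spread alone, which could be technical. With 1 line per genotype, the fusion and any other difference between the lines cannot be told apart, and the sources used here do not say whether the derived line is 1 clone.

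The 26S proteasome degrades proteins tagged with ubiquitin. Its 20S core is a stack of alpha and beta rings, and the protease sites lie on the inner beta rings. The 19S cap sits on the core, with a base of ATPases that unfold the substrate and a lid that removes the ubiquitin. Cells adjust the mRNAs of many subunits together, mainly through the transcription factor NFE2L1, which is cut free and acts on antioxidant response elements when degradation falls short. Protein kinase A is known to phosphorylate the lid subunit Psmd11, a change of the protein that mRNA counts cannot show.

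The libraries held 8095549 to 9969590 counts, and all values below are CPM, which scale a count to the library total, here adjusted by the TMM method, unless stated otherwise. Prkaca, the gene of the fused kinase subunit, gave 63.6, 87.6 and 79.2 CPM in WT A to C, lower than the 131, 120 and 95.7 CPM of DNAJ-PKAc A to C, with no overlap. The labels do not say from which species the fusion sequence was taken, so this is no full check of the genotype. Hepatocyte markers were almost absent: Alb, Ttr, Apoa1, Apob and Hnf4a had no count in any library, and the 10 markers summed to 2.36 to 11.7 CPM per library by plain totals. That sum was mainly Krt8 in WT, at 7.16 to 8.35 CPM, against 0.118 to 1.40 CPM in DNAJ-PKAc. In DNAJ-PKAc it was mainly Afp, at 2.24 to 10.3 CPM, against 0 to 0.338 CPM in WT. With all 6 libraries edgeR called Krt8 lower (adjusted p 0.0360) and Afp higher (adjusted p 0.0252). Leukocyte markers summed to 40.3 to 106 CPM in WT against 19.6 to 83.7 CPM in DNAJ-PKAc, with Ptprc and Cd3e at 0. Nearly all of this was the single gene Cd14, at 38.7 to 103 CPM in WT and 17.9 to 79.5 CPM in DNAJ-PKAc. Endothelial markers summed to at most 2.39 CPM with Kdr at 0. Cholangiocyte markers summed to 21.0 to 54.3 CPM in WT against 9.08 to 12.4 CPM in DNAJ-PKAc, with Krt19 and Epcam at 0. Here Sox9 made up nearly all of the sum, at 20.3 to 53.7 CPM in WT and 8.25 to 11.9 CPM in DNAJ-PKAc. Fibroblast and stellate markers, led by Col1a2 and Col3a1, summed to 11204 to 13589 CPM in WT against 4506 to 16718 CPM in DNAJ-PKAc, with Lrat at 0. The low DNAJ-PKAc libraries for these markers were A and B, at 4815 and 4506 CPM, against 16718 in C. Among 14 cell cycle genes the median log2 difference from the WT mean was 1.97 in DNAJ-PKAc A, 1.99 in DNAJ-PKAc B and -1.54 in DNAJ-PKAc C. WT B also stood apart, with the nuclear RNA Malat1 at 10412 CPM by plain totals where the others had 1065 to 4639, and the ribosomal RNA gene Rn45s at 2.66% of counts against 0.912% to 1.05%. Counts of calls below are therefore given with and without these libraries, and single genes mainly with all 6. In bulk RNA, fewer cells of a type and less RNA per cell cannot be told apart.

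The upstream sequences of 5 members are shown because these genes carry the contrasts described below. Psmb5 is a catalytic subunit, Psmd1, Psmd5 and Psmd10 are members whose groups did not overlap, and Psmd9 is a chaperone of the same kind as Psmd5 and Psmd10 whose groups overlapped. Each is the 120 bases just before the annotated gene, on the strand of the gene, read 5′ to 3′ from RefSeq on build GRCm38.p6, the assembly of mm10. Capitals mark matches, on either strand, to the antioxidant response core TGACNNNGC, the CCAAT box (CCAAT) or the cyclic AMP response element TGACGTCA.
Psmb5: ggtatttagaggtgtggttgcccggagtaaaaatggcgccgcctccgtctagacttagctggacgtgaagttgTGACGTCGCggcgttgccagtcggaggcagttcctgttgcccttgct
Psmd1: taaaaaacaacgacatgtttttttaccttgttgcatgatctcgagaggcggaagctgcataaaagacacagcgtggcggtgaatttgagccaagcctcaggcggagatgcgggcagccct
Psmd5: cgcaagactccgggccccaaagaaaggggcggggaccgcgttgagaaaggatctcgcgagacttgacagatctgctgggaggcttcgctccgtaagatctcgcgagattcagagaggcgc
Psmd10: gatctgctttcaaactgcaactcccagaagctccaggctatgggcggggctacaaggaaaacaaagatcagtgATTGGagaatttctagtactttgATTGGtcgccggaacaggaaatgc
Psmd9: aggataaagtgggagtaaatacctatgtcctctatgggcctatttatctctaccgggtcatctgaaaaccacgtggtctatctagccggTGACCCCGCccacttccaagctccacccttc
The stretches lie at chr14:54617996-54618115 (minus strand), chr1:86064499-86064618 (plus), chr2:34870966-34871085 (minus), chrX:140956712-140956831 (minus) and chr5:123228070-123228189 (plus), in that order.

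The capitals in Psmb5 and Psmd9 are antioxidant response cores, and the 2 matches in Psmd10 are CCAAT boxes read on the opposite strand. In Psmd1 and Psmd5 none of the 3 motifs matched in these stretches. RefSeq promoter windows, which run from 250 bases before to 50 bases after a start site, were matched for 37 of the 44 proteasome genes. The genes with no entry were Psmb1, Psmb2, Psmb7, Psmc3, Psmd3, Psmd7 and Psmg2. The antioxidant response core matched in 6 of the 37 (16.2%), namely Psmb5, Psmb6, Psmc6, Psmd9, Psmd12 and Psme4, against 14% of all genes with a window. A CCAAT box matched in 12 of the 37 (32.4%) against 41.1% of all genes, in Psma1, Psma2, Psma3, Psma6, Psma7, Psmb3, Psmc1, Psmc2, Psmd4, Psmd10, Psmd14 and Psme3. The cyclic AMP response element, which the factor CREB binds, matched in 0 of 37 and in 2.03% of all genes. A match is a description of letters in a window, and a window without a match says nothing of sequence outside it.

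Per kilobase of transcript, the highest levels were those of core subunits. In WT the alpha ring ran from 37.9 CPM per kilobase for Psma3 to 239 for Psma7, and the beta ring from 69.3 for Psmb5 to 223 for Psmb6. The ATPases ran from 48.9 (Psmc2) to 128 (Psmc3), the other base subunits from 40.8 (Psmd1) to 155 (Psmd4), and the lid from 28.8 (Psmd13) to 120 (Psmd8). Assembly chaperones ran from 8.55 CPM per kilobase for Psmg1 to 31.1 for Psmd10, a range that meets that of the lowest lid subunits. Among the activators Psme1 and Psme2 stood at 112 and 106 CPM per kilobase, Psme4 at 37.5, Psme3 at 30.5 and Psme2b at 6.14, and the inhibitor Psmf1 stood at 12.3. In the core, Psma7 and Psmb6 at the top did not separate within the SD of their libraries, and in DNAJ-PKAc Psma7 again stood highest, at 278 CPM per kilobase, followed by Psmb4 at 225, Psmb7 at 222 and Psmb6 at 215, which lay within the SD of one another.

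**Figure D1:**
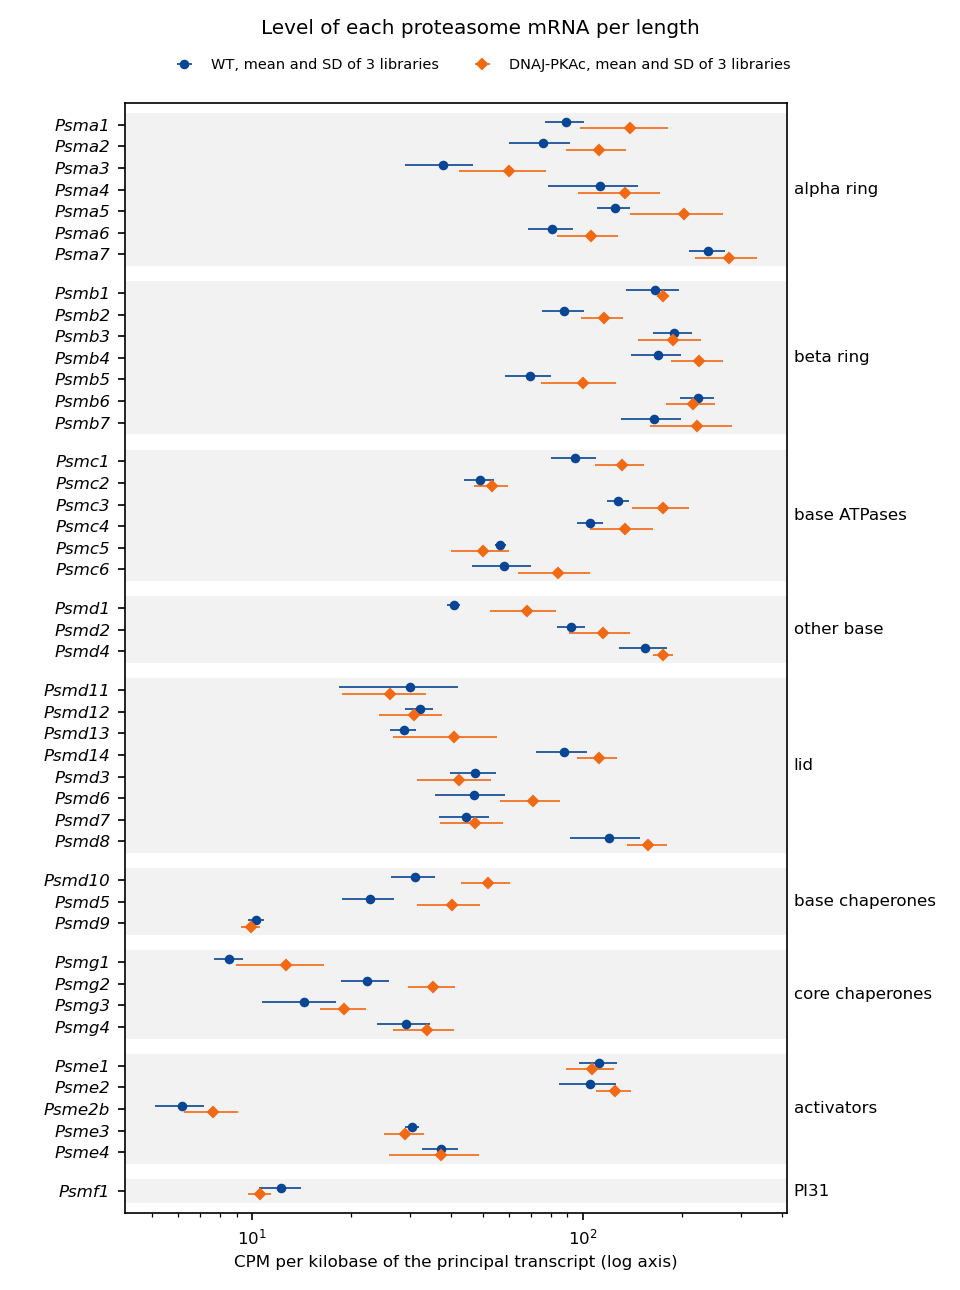
Mean and SD over 3 libraries of each proteasome mRNA, in CPM per kilobase on a log axis, for WT (circles) and DNAJ-PKAc (diamonds), grouped by role. Core subunits such as Psma7 (239 in WT) lie well above assembly chaperones such as Psmg1 (8.55 in WT).

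The genes of the proteasome were not called different between the lines in the test of all 6 libraries, although most leaned higher in DNAJ-PKAc. By edgeR's quasi-likelihood test with Benjamini-Hochberg adjustment over 10975 genes, 0 of the 44 had an adjusted p under 0.05 in either direction, where 1.37% of all genes were called higher and 2.14% lower. The smallest adjusted p was 0.0998, for Psmd10. DESeq2 called 2 of the 44 higher and 0 lower, against 3.17% and 5.70% of all genes, and limma-voom called 0 in either direction, against 1.29% and 2.27%. At an unadjusted p under 0.05, 11 of the 44 were higher against 11.8% of all genes, and 0 were lower against 9.72%. The log2 difference was above 0 for 33 of 44 against 53.9% of all genes, and its median was 0.35, a fold of 1.27, against 0.05 over all genes. Without WT B the median was 0.21. Values of all 3 DNAJ-PKAc libraries exceeded all 3 WT values for 5 of 44, Psmd1, Psmd5, Psmd6, Psmd10 and Psmg2, which is a smaller share than the 15.8% of all genes. The reverse held for 0 of 44 against 13.1% of all genes.

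The higher values were those of libraries A and B of DNAJ-PKAc. The median log2 difference from the WT mean over the 44 genes was 0.49 in DNAJ-PKAc A, 0.52 in DNAJ-PKAc B and 0.06 in DNAJ-PKAc C, beside 0.17, -0.21 and 0.03 in WT A, B and C. DNAJ-PKAc A lay above every WT library for 32 of 44 genes against 36.4% of all genes, and DNAJ-PKAc B likewise for 32 of 44 against 37.9%. DNAJ-PKAc C did so for 6 of 44 against 34.9%, and lay below every WT library for 11 of 44 against 29.5%. DNAJ-PKAc C was the lowest of its group for 40 of 44 genes (90.9%), against 42.7% of all genes. This is also the library in which the cell cycle genes were low, and the part of that difference in the proteasome values was not tested. WT B was the lowest WT library for 32 of 44 (72.7%) against 42.3%, and the highest for 9 of 44 (20.5%) against 41.2%.

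**Figure D2:**
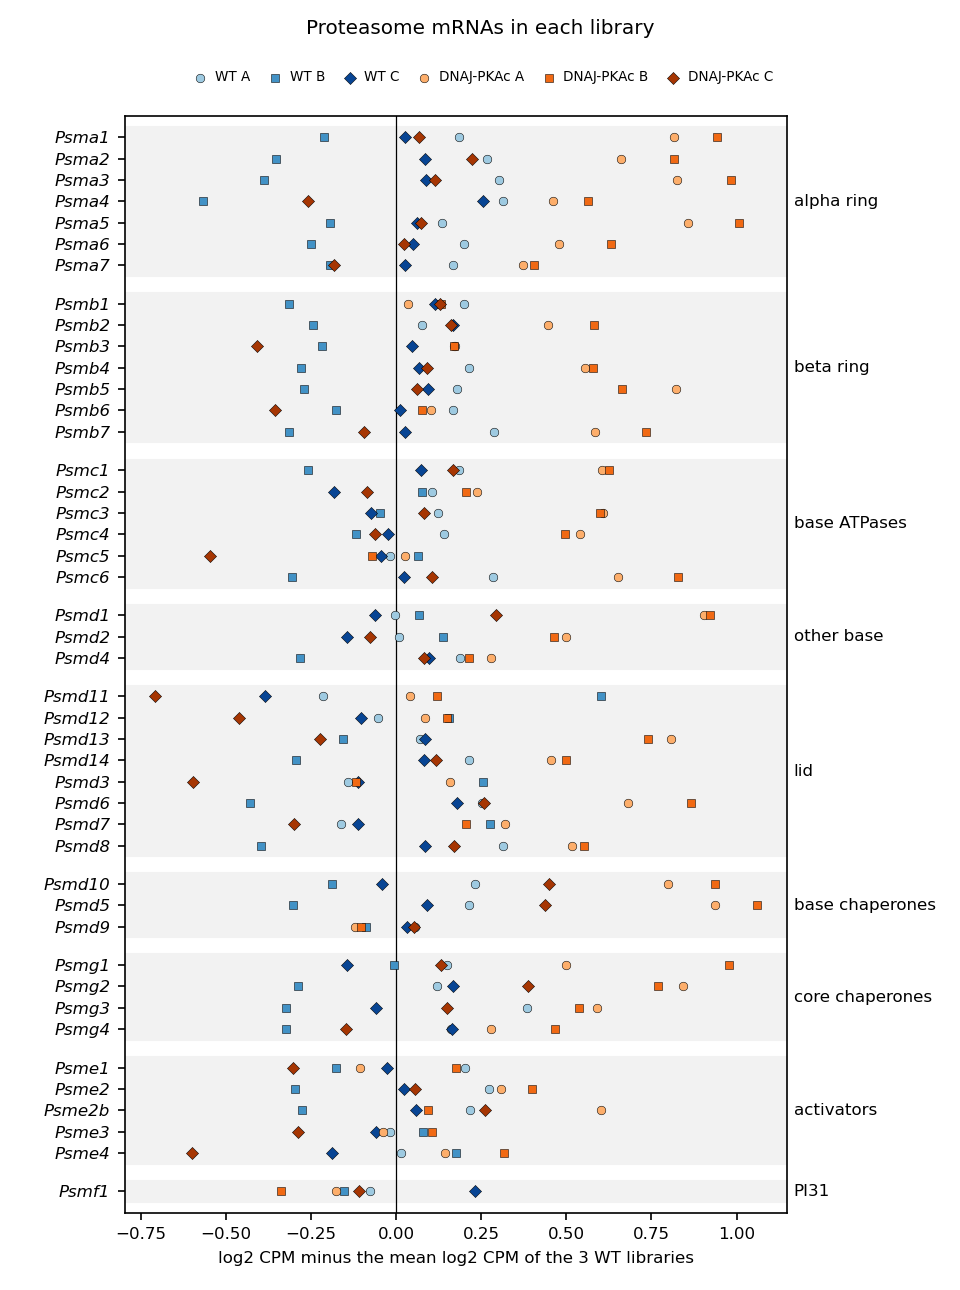
Each point is 1 library, placed by its log2 CPM for the gene minus the mean log2 CPM of the 3 WT libraries (circles A, squares B, diamonds C; WT in blue, DNAJ-PKAc in orange). DNAJ-PKAc A and B lie to the right for most core, cap and chaperone genes, whereas DNAJ-PKAc C lies near the WT libraries, with a median of 0.06.

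Summed over the 44 genes, proteasome mRNA made up 5703, 4640 and 5187 CPM in WT A to C and 7032, 7322 and 5020 CPM in DNAJ-PKAc A to C. DNAJ-PKAc A and B were higher than every WT library, and DNAJ-PKAc C lay between WT B and WT C. The summed CPM of the core over that of the cap was 1.07, 0.846 and 1.07 in WT and 0.996, 1.06 and 0.996 in DNAJ-PKAc. These sums are not adjusted for transcript length. WT B was the low value, and the DNAJ-PKAc libraries lay inside the range of the WT libraries only through WT B. WT A and WT C were above every DNAJ-PKAc library.

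Without DNAJ-PKAc C, the same edgeR test called 17 of 44 proteasome genes higher and 0 lower, where 14.3% of 11096 genes were called higher and 11.0% lower. The 17 that rose in that fit were the alpha subunits Psma1, Psma2, Psma3 and Psma5, the beta subunit Psmb5, the ATPases Psmc1, Psmc3, Psmc4 and Psmc6, the base subunits Psmd1 and Psmd2, the lid subunits Psmd6 and Psmd13, and the chaperones Psmd5, Psmd10, Psmg1 and Psmg2. Their share of the 44 exceeds the background share, and the median over the 44 was 0.49, a fold of 1.41. Leaving out any 1 of the other 5 libraries gave 0 calls. Without both WT B and DNAJ-PKAc C, 27 of 44 were called higher against 23.9% of 11012 genes and 1 lower, Psmf1, against 24.5%, and the 27 include all 17. With DNAJ-PKAc C left out the contrast rests on A and B of that group. These libraries also had high cell cycle genes and low fibroblast markers, of which 5 of 6 were called lower and 1 higher in the same fit, and the part of these differences in the proteasome values was not tested.

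**Figure D3:**
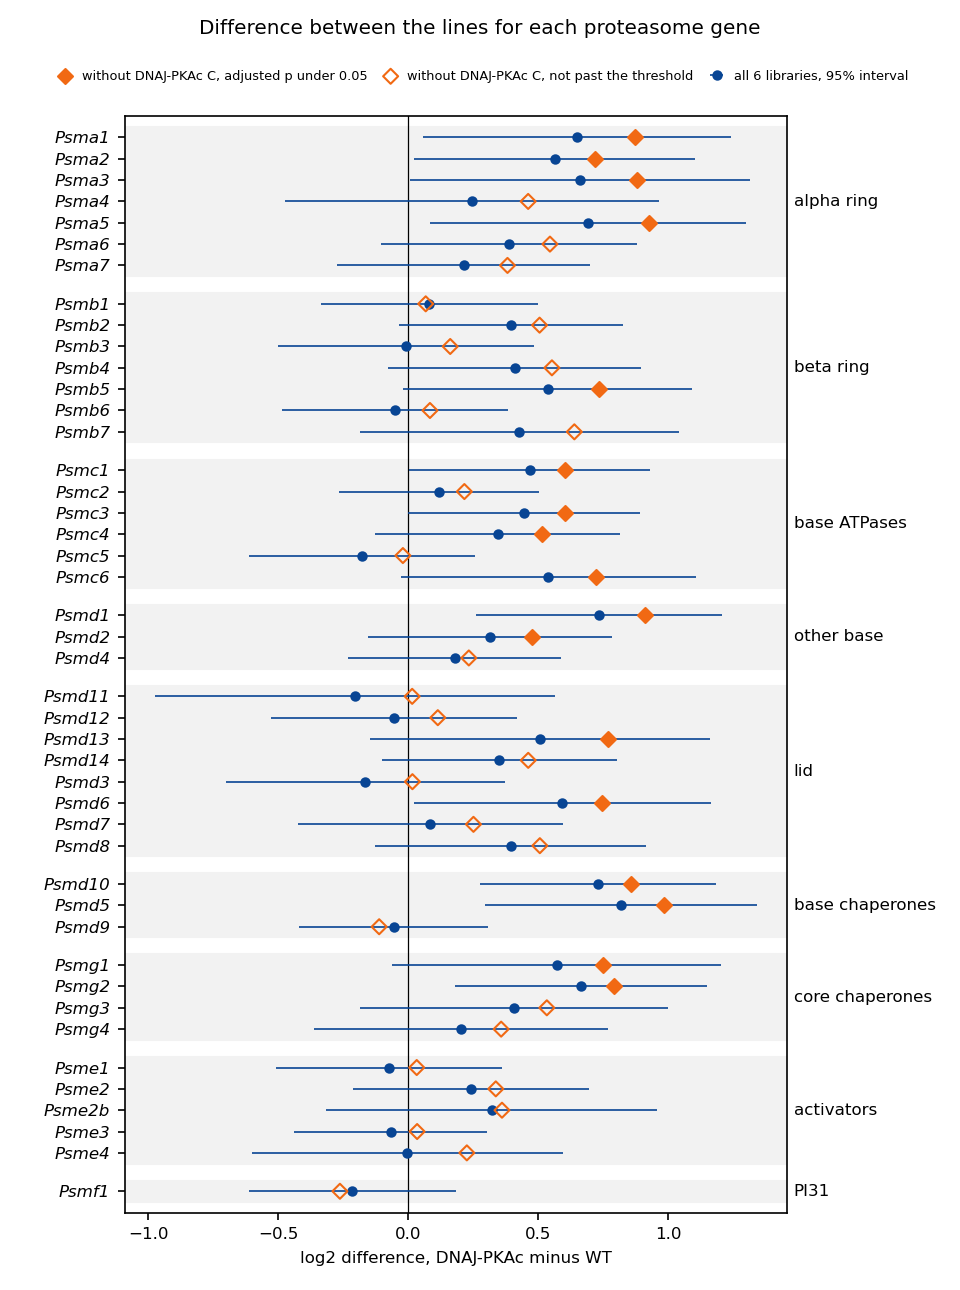
The log2 difference of each proteasome gene, DNAJ-PKAc minus WT, with its 95% interval from all 6 libraries (blue circles), and from the fit without DNAJ-PKAc C (diamonds, filled where the adjusted p was under 0.05). Filled diamonds number 17, none of them among activators or PI31, and no gene plotted passed the edgeR threshold with all 6 libraries.

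The 7 subunits of the alpha ring, which gates entry to the core, had a median log2 difference of 0.56, with all 7 above 0 under each scaling tried. Psma5 was at 169, 135 and 161 CPM in WT, against 279, 310 and 162 CPM in DNAJ-PKAc. DNAJ-PKAc A and B stood far above WT, and DNAJ-PKAc C lay just above WT C and under WT A. Its log2 difference was 0.69 ± 0.26 (SE, edgeR adjusted p 0.194), and 0.93 without DNAJ-PKAc C (adjusted p 0.00682). Psma1 gave 121, 91.7 and 108 CPM in WT against 187, 204 and 111 CPM in DNAJ-PKAc, and Psma3 gave 130, 80.8 and 112 CPM against 188, 209 and 115 CPM. Both showed the same order, with A and B high and C inside the WT range, and log2 differences of 0.65 ± 0.25 and 0.66 ± 0.28. Psma7, the most abundant per length, was at 244, 190 and 221 CPM in WT against 282, 288 and 192 CPM in DNAJ-PKAc, a log2 difference of 0.21 ± 0.21 with DNAJ-PKAc C near the lowest WT value. Psma2 had 0.56, Psma6 0.39 and Psma4 0.25, and Psma4 gave -0.02 without WT B. Reads of Psma4 and Psma5 are uncertain because their exons overlap AY074887 and 1700010K24Rik on the opposite strand.

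The beta ring carries the protease sites, and its catalytic subunits gave different values. Psmb5, the chymotrypsin-like site and the main target of proteasome inhibitors, was at 69.9, 51.1 and 65.8 CPM in WT against 109, 97.8 and 64.3 CPM in DNAJ-PKAc. DNAJ-PKAc A and B lay above all WT libraries and C among them, for a log2 difference of 0.54 ± 0.24 (edgeR adjusted p 0.241), and 0.73 without DNAJ-PKAc C (adjusted p 0.0226). Psmb7, the trypsin-like site, was at 230, 151 and 192 CPM in WT against 282, 313 and 177 CPM in DNAJ-PKAc, a log2 difference of 0.43 ± 0.26 with DNAJ-PKAc C between WT B and WT C. Psmb6, the caspase-like site, was at 199, 156 and 178 CPM in WT against 190, 187 and 138 CPM in DNAJ-PKAc. Its groups overlapped and its log2 difference was -0.05, with a 95% interval from -0.49 to 0.38, which overlaps that of Psmb5, from -0.02 to 1.09. The difference between the catalytic subunits was not tested. Among the structural subunits, Psmb2 was at 79.2, 63.4 and 84.3 CPM in WT against 102, 112 and 84.0 CPM in DNAJ-PKAc (log2 difference 0.40), with DNAJ-PKAc C just under the highest WT value. The other log2 differences were 0.41 for Psmb4, 0.08 for Psmb1 and -0.01 for Psmb3. Exons of Psmb5 overlap Mir686 and those of Psmb7 overlap Nek6, so reads of both are uncertain.

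The ATPases of the base form a ring that unfolds substrates and opens the core gate. Psmc1 was at 170, 125 and 158 CPM in WT against 228, 231 and 168 CPM in DNAJ-PKAc, and Psmc3 at 228, 203 and 199 CPM against 319, 318 and 222 CPM. In both, DNAJ-PKAc A and B were above every WT library and C lay under WT A. The log2 differences were 0.47 ± 0.20 and 0.45 ± 0.19, with edgeR adjusted p-values of 0.229 and 0.231. Psmc2, the least abundant ATPase per length, was at 93.6, 91.7 and 76.6 CPM in WT against 103, 100 and 82 CPM in DNAJ-PKAc, a log2 difference of 0.12. Psmc6 had 0.54, Psmc4 0.35 and Psmc5 -0.18. Psmc5 was thus the ATPase with a negative value, and its 95% interval ran from -0.61 to 0.26. Exons of Psmc3 overlap Slc39a13 on the opposite strand, so its reads are uncertain.

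Among the other base subunits, Psmd1, the scaffold on which the base is built, had the steepest difference of the cap. It was at 127, 133 and 122 CPM in WT against 238, 240 and 156 CPM in DNAJ-PKAc. All DNAJ-PKAc libraries lay above all WT libraries, and the WT libraries, B included, lay within a narrow range. The log2 difference was 0.73 ± 0.20 (1.66-fold), with an adjusted p of 0.111 by edgeR and 0.0484 by DESeq2, and 0.91 without DNAJ-PKAc C (edgeR adjusted p 0.00383). Its reads are uncertain because its exons overlap Gm21972 on the same strand. Psmd2, which binds ubiquitin shuttle proteins, was at 275, 300 and 247 CPM in WT against 386, 377 and 259 CPM in DNAJ-PKAc, a log2 difference of 0.31 ± 0.20 with DNAJ-PKAc C among the WT values. Psmd4, a receptor for ubiquitin chains, was at 232, 168 and 218 CPM in WT against 247, 236 and 216 CPM in DNAJ-PKAc. Its groups overlapped through DNAJ-PKAc C, and the log2 difference was 0.18.

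The lid was divided, with 5 of 8 log2 differences above 0 and a median of 0.22. Psmd6 was at 76.1, 47.4 and 72.2 CPM in WT against 102, 116 and 76.4 CPM in DNAJ-PKAc. The groups did not overlap, but DNAJ-PKAc C exceeded WT A only barely, and the log2 difference was 0.59 ± 0.24 (edgeR adjusted p 0.220). Psmd13 was at 60.1, 51.3 and 60.7 CPM in WT against 100.2, 95.5 and 49.0 CPM in DNAJ-PKAc, and Psmd8 at 225, 138 and 192 CPM against 259, 266 and 204 CPM. DNAJ-PKAc C was the lowest of all libraries for Psmd13 and lay inside the WT range for Psmd8, and the log2 differences were 0.51 and 0.39. Psmd14, the enzyme that cuts ubiquitin from the substrate, was at 155, 109 and 141 CPM in WT against 183, 189 and 145 CPM in DNAJ-PKAc, a log2 difference of 0.35 ± 0.19 with DNAJ-PKAc C above WT C and under WT A. Exons of Psmd13 overlap Sirt3 on the opposite strand, so its reads are uncertain.

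Psmd11, the lid subunit that protein kinase A phosphorylates, was at 70.7, 124 and 62.8 CPM in WT against 84.4, 89.2 and 50.2 CPM in DNAJ-PKAc. WT B was the highest library and DNAJ-PKAc C the lowest, so the sign depended on these libraries. With all 6 libraries the log2 difference was -0.20 ± 0.33 (edgeR adjusted p 0.736), with a 95% interval from -0.97 to 0.57. Without both WT B and DNAJ-PKAc C it was 0.33 (adjusted p 0.0172). The remaining lid subunits, Psmd3, Psmd7 and Psmd12, had log2 differences of -0.16, 0.09 and -0.06, and in all of them WT B was the highest WT library. Reads of Psmd3 are uncertain because its exons overlap Gm12356. Over the 44 genes, the deviation of WT B from WT A and C correlated with log2 transcript length at r = 0.41, and over 8407 genes of at least 10 CPM at r = 0.58. Genes share the library, so this is a description across genes, and its part in the lid values was not tested.

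The chaperones that assemble the base gave the highest median log2 difference among roles with 3 or more genes, 0.73. Psmd10, also known as gankyrin and as an oncoprotein in liver cancer, was at 51.8, 38.7 and 42.9 CPM in WT against 76.8, 84.6 and 60.3 CPM in DNAJ-PKAc. No DNAJ-PKAc library overlapped WT, and the log2 difference was 0.73 ± 0.19 (1.66-fold, edgeR adjusted p 0.0998), and 0.86 without DNAJ-PKAc C (adjusted p 0.0115). Psmd5, which holds ATPases during assembly, was at 115, 80.5 and 106 CPM in WT against 190, 207 and 135 CPM in DNAJ-PKAc, again without overlap. Its log2 difference of 0.82 ± 0.22 (1.76-fold) was the largest of the 44, with an adjusted p of 0.108 by edgeR and 0.0437 by DESeq2, and it was 0.98 without DNAJ-PKAc C (edgeR adjusted p 0.0101). Psmd9, the other base chaperone, was at 27.8, 25.2 and 27.4 CPM in WT against 24.6, 24.9 and 27.8 CPM in DNAJ-PKAc. The groups overlapped, and the log2 difference was -0.06, with a 95% interval from -0.42 to 0.31. This narrowly overlaps the intervals of Psmd10, from 0.28 to 1.19, and of Psmd5, from 0.30 to 1.34. The difference between the base chaperones was not tested.

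The chaperones of the core were low in abundance, and their log2 differences ran from 0.20 to 0.67. Psmg2, which pairs with Psmg1 to start the alpha ring, was at 25.4, 19.1 and 26.3 CPM in WT against 42.0, 39.9 and 30.6 CPM in DNAJ-PKAc. Its groups did not overlap, and the log2 difference was 0.67 ± 0.21 (1.59-fold, edgeR adjusted p 0.137), and 0.79 without DNAJ-PKAc C (adjusted p 0.0204). Psmg1 was at 9.86, 8.87 and 8.06 CPM in WT against 12.6, 17.5 and 9.75 CPM in DNAJ-PKAc, with DNAJ-PKAc C under WT A and a log2 difference of 0.57 ± 0.27. Psmg4 was at 18.0, 12.8 and 18.0 CPM in WT against 19.5, 22.2 and 14.5 CPM in DNAJ-PKAc, a log2 difference of 0.20, and Psmg3, whose exons overlap Gm26938 so that its reads are uncertain, had 0.41. Pomp, a further core assembly factor outside the name rule, was at 79.2, 60.1 and 73.5 CPM in WT against 106, 104 and 67.1 CPM in DNAJ-PKAc. It showed the same pattern of A and B high and C within WT, with a log2 difference of 0.38 ± 0.22 (edgeR adjusted p 0.340). Without DNAJ-PKAc C the value for Pomp was 0.57 (edgeR adjusted p 0.0386).

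The activators and the inhibitor did not lean the same way, with a median log2 difference of -0.03 over the 6 genes. Psme1 and Psme2 form the interferon-inducible PA28 ring that opens the core without ATP. Psme1 was at 143, 110 and 122 CPM in WT against 115, 140 and 101 CPM in DNAJ-PKAc, and Psme2 at 121, 81.6 and 102 CPM against 124, 132 and 104 CPM. Both overlapped between groups, with log2 differences of -0.07 (95% interval -0.51 to 0.36) and 0.24 (-0.21 to 0.70), and reads of Psme1 are uncertain because its exons overlap Emc9. Psme3, the nuclear PA28 subunit, was at 80.1, 85.7 and 77.9 CPM in WT against 79.0, 87.3 and 66.4 CPM in DNAJ-PKAc, a log2 difference of -0.07. Psme4, the large activator PA200, was at 244, 273 and 212 CPM in WT against 267, 301 and 160 CPM in DNAJ-PKAc. DNAJ-PKAc C was the lowest library for both, and without both WT B and DNAJ-PKAc C the value for Psme4 was 0.27 (edgeR adjusted p 0.0434), against -0.00 with all libraries.

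Psme2b, a near copy of Psme2, was at 5.92, 4.20 and 5.30 CPM in WT against 7.72, 5.43 and 6.09 CPM in DNAJ-PKAc, a log2 difference of 0.32. It was the only member with counts that were not whole, and its values are uncertain because reads can be shared with Psme2 and with 9930111J21Rik1, whose exons it overlaps. Psmf1, which codes for PI31, an inhibitor of the isolated core that also acts in proteasome transport, was at 44.1, 41.8 and 54.6 CPM in WT against 41.2, 36.8 and 43.1 CPM in DNAJ-PKAc. Its groups overlapped through DNAJ-PKAc C, and the log2 difference was -0.21 ± 0.17 (edgeR adjusted p 0.476). Psmc3ip, the member that is no subunit, was at 6.58, 5.25 and 6.4 CPM in WT against 11.6, 9.51 and 2.92 CPM in DNAJ-PKAc, with DNAJ-PKAc C the lowest library and A and B above WT. Its reads are uncertain because its exons overlap Mlx on the opposite strand.

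The constitutive catalytic subunits have interferon-inducible counterparts that replace them in the immunoproteasome, and these lay lower in DNAJ-PKAc. Psmb8, which replaces Psmb5, was at 88.3, 68.5 and 91.5 CPM in WT libraries and fell to 33.7, 31.9 and 31.4 CPM in DNAJ-PKAc. No library overlapped, DNAJ-PKAc C included, and the log2 difference was -1.36 ± 0.17 (edgeR adjusted p 0.0102). The adjusted p rose above 0.05, to between 0.0586 and 0.0631, on leaving out WT A or C, or DNAJ-PKAc A or B, with the log2 difference between -1.38 and -1.28. Psmb9, which replaces Psmb6, was at 8.66, 8.75 and 6.07 CPM in WT against 2.67, 1.98 and 5.0 CPM in DNAJ-PKAc. Psmb10, which replaces Psmb7, was at 38.6, 32.6 and 35.3 CPM in WT against 22.6, 23.0 and 8.16 CPM in DNAJ-PKAc. Neither overlapped between groups, and neither passed the edgeR threshold with all 6 libraries, with log2 differences of -1.28 (edgeR adjusted p 0.133) and -0.99 (adjusted p 0.198), whereas DESeq2 called Psmb9 (adjusted p 0.0348). Without DNAJ-PKAc C edgeR called both lower, with values of -1.73 (adjusted p 0.00843) and -0.64 (adjusted p 0.0238). Of all genes, 13.1% lay lower without overlap with all 6 libraries, and 11.0% were called lower without DNAJ-PKAc C. Psmb9 had 293 counts summed over the libraries.

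The ratio of each constitutive subunit to its counterpart, per transcript length, was higher in DNAJ-PKAc without overlap in 2 of the 3 pairs. Psmb5 over Psmb8 was 1.43, 1.35 and 1.3 in WT and 5.87, 5.56 and 3.71 in DNAJ-PKAc, a 3.63-fold difference of the geometric means. Psmb7 over Psmb10 was 6.74, 5.26 and 6.15 in WT and 14.1, 15.4 and 24.4 in DNAJ-PKAc, a 2.90-fold difference. In both pairs every DNAJ-PKAc library exceeded every WT library, which gives p = 0.1 in the 2-sided exact permutation test, the smallest value that 3 against 3 libraries allow, and 0.15 after Benjamini-Hochberg adjustment over the 3 pairs. Psmb6 over Psmb9 was 38.9, 30.3 and 49.7 in WT and 120, 160 and 46.9 in DNAJ-PKAc, with DNAJ-PKAc C inside the WT range (2.49-fold, exact permutation p = 0.2, adjusted 0.2). On the log2 scale, the constitutive subunits differed by at most 0.54 and the inducible ones were lower by 0.99 to 1.36. The pairs were chosen with the values known.

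**Figure D4:**
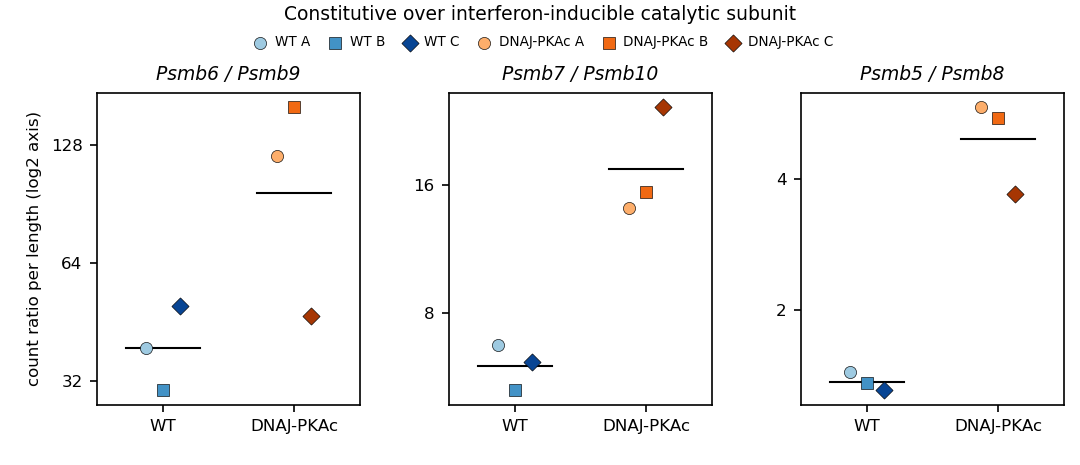
Ratio of the constitutive to the interferon-inducible catalytic subunit in each library, per transcript length, on log2 axes that differ between panels, with a bar at the geometric mean of each group. For Psmb5 over Psmb8 the WT libraries lie between 1.3 and 1.43 and the DNAJ-PKAc libraries between 3.71 and 5.87, and for Psmb6 over Psmb9 DNAJ-PKAc C (46.9) lies within the WT range.

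None of the listed regulators of proteasome genes or proteins that deliver substrates passed the edgeR test with all 6 libraries. Nfe2l1, the factor that induces subunit genes, was at 427, 534 and 405 CPM in WT against 249, 236 and 477 CPM in DNAJ-PKAc. DNAJ-PKAc A and B, where most subunit mRNAs were high, were the low libraries for Nfe2l1, and DNAJ-PKAc C lay among WT. Any relation between Nfe2l1 mRNA and the subunit mRNAs was not tested. The log2 difference of Nfe2l1 was -0.51 ± 0.30 (edgeR adjusted p 0.347), and -0.91 without DNAJ-PKAc C (adjusted p 0.0109). Its relative Nfe2l2 was at 181, 177 and 152 CPM in WT against 186, 189 and 205 CPM in DNAJ-PKAc, a log2 difference of 0.19. Of 9 genes of NFE2L1 processing and partners, edgeR called 0, against 1.37% of all genes called higher and 2.14% lower. At an unadjusted edgeR p under 0.05, 2 were higher and 0 lower, against 11.8% and 9.72% of all genes. DESeq2 called 1 higher, Mafk, against 3.17% of all genes, and limma-voom called 0. The smallest adjusted p was that of Mafk, a small Maf partner, at 30.2, 29.6 and 30.2 CPM in WT against 58.6, 54.6 and 41.9 CPM in DNAJ-PKAc (log2 difference 0.78, edgeR adjusted p 0.0625), and Maff followed with 0.58 (adjusted p 0.218). For Mafk and Nfe2l2 the groups did not overlap. Without DNAJ-PKAc C edgeR called 2 of the 9 higher, Mafk and Maff, and 1 lower, Nfe2l1. The shares of all genes in that fit were 14.3% and 11.0%. Without both WT B and DNAJ-PKAc C it called 2 higher and 3 lower, against 23.9% and 24.5% of all genes.

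Of 12 other proteasome-bound and assembly proteins tested, edgeR, DESeq2 and limma-voom called 0 with all 6 libraries, and the median log2 difference was 0.22. At an unadjusted edgeR p under 0.05, 1 was higher and 0 were lower, against 11.8% and 9.72% of all genes. The smallest adjusted p-values were those of Akirin2, which carries proteasomes into the nucleus (log2 difference 0.58, edgeR adjusted p 0.129), and of Zfand2a, a stress-induced proteasome partner (-0.35, adjusted p 0.265). Of 11 ubiquitin shuttles and genes of the VCP segregase, 0 were called by any of the 3 tools and 0 had an unadjusted edgeR p under 0.05. Their median was -0.04, and Nploc4 (log2 difference -0.30) and Ubqln1 (0.24) had the smallest edgeR adjusted p-values. Of 6 genes of ubiquitin supply and activation the same counts held, with a median of -0.03, and Uba6, an enzyme that activates ubiquitin, was at 0.26. Without DNAJ-PKAc C, edgeR called 2 of the 12, 1 of the 11 and 0 of the 6 higher, and 0 lower. The shares of all genes in that fit were 14.3% and 11.0%. Without both WT B and DNAJ-PKAc C, 6 of the 12 were called higher and 2 lower. Of the 11, 1 was then higher and 0 lower, and of the 6, 1 was higher and 3 lower. All genes in that fit gave 23.9% and 24.5%. With all 6 libraries, the medians of these lists lay closer to that of all genes (0.05) than did the median of the 44 proteasome genes.

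Other large complexes of the cytosol give a measure of comparison. The COP9 signalosome is a complex related in build to the lid that removes NEDD8 from ubiquitin ligases. Of its 9 genes edgeR called 1 higher, against 1.37% of all genes. That gene was Cops8, at 37.8, 28.6 and 36.9 CPM in WT against 69.9, 74.3 and 62.0 CPM in DNAJ-PKAc. It rose 2.00-fold without overlap, DNAJ-PKAc C included (log2 difference 1.00 ± 0.17, edgeR adjusted p 0.0289). The median over the 9 genes was 0.28, and Cops7b followed at 0.88 (edgeR adjusted p 0.0933). DESeq2 called Cops7b and Cops8 higher, against 3.17% of all genes, and limma-voom called Cops8, against 1.29%. The chaperonin TRiC, which folds actin and tubulin, had 0 of 8 genes called by the 3 tools. At an unadjusted edgeR p under 0.05, 3 were higher, against 11.8% of all genes, and the median log2 difference was 0.48. Cct2 (log2 difference 0.67, edgeR adjusted p 0.161) and Cct7 (0.63, adjusted p 0.196) had the smallest adjusted p-values. The largest log2 difference was 0.70, for Cct3 (edgeR adjusted p 0.268). Relative to WT, the median over TRiC was 0.60 in DNAJ-PKAc A, 0.74 in B and 0.00 in C, the same order of libraries as in the proteasome. Without DNAJ-PKAc C, edgeR called 6 of 8 TRiC genes, 2 of 9 COP9 genes and 14 of 14 cell cycle genes higher, against 14.3% of all genes. The high values of libraries A and B were thus seen in TRiC and the cell cycle genes as well. The 2 COP9 genes called in that fit, Cops7b and Cops8, lay above every WT library in DNAJ-PKAc C too. Among the 14 cell cycle genes edgeR and limma-voom called 0 with all 6 libraries, and DESeq2 called 1 higher, Cdk1, against 3.17% of all genes. At an unadjusted edgeR p under 0.05 there were 4, all higher, against 11.8% of all genes, and the median was 1.46.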

How the data were processed

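Libraries were prepared by a stranded protocol from total RNA, 3 of WT and 3 of DNAJ-PKAc, per the labels' protocols. The deposited values are expected counts, 1 row per gene symbol and without normalization, per the file headers and from unequal column totals. Per the submitters' processing notes, the tools are STAR 2.5.2b and RSEM 1.3.0 and the build is mm10, with no role stated. The sources used here do not give the annotation or the strand setting.

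Counts were rounded to whole numbers, filtered with filterByExpr (minimum count 10, which left 10975 genes), scaled by TMM and tested with edgeR 4.0.16 in R 4.3.3 (robust quasi-likelihood, 2-sided, group as the only term, Benjamini-Hochberg over all genes tested, threshold 0.05). The test was tried on simulated counts first. Differences are DNAJ-PKAc minus WT. DESeq2 1.42.0, limma-voom (limma 3.58.1), other factors and filters, a replicate block and left-out libraries were alternatives. The labels do not say that letters A to C mark a shared day or culture. Same-letter deviations from the group means correlated at 0.22, -0.22 and 0.02, which with 3 libraries per group cannot decide this. All pairs of libraries differed beyond sampling noise, and 6 were counted. At these totals 1 CPM is about 8 to 10 counts, and the SE of a log2 difference had a median of 0.21 over the members.

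Lengths per gene are of the principal GENCODE transcript, and positions and promoter windows come from RefSeq on GRCm38.p6. The members, lists and alternatives were chosen with earlier results of these data known, and the catalytic pairs after seeing values. Named with values in every library were the members of smallest adjusted p in each role (2 per role), the catalytic subunits, Psmd11, Psmd14, Psmf1, Psme1 to Psme4, the members of lowest and highest level per length in each role, Psmb8 to Psmb10, Nfe2l1, Nfe2l2 and Pomp. In each other proteasome list, and in COP9 and TRiC, the called genes or the 2 of smallest adjusted p were named, with at least their log2 difference. 1 of the genes so chosen is not reported here.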

Additional observations from a re-analysis of the deposited data

How the results depend on the processing

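The count of proteasome genes called higher, 0 with all libraries, was 0 under RLE or upper-quartile factors, no filter, a filter of 1 CPM in 3 libraries, limma-voom, edgeR without the robust option and the replicate block. It was 2 by DESeq2, 0 to 17 over the fits that leave out 1 library, with 17 only without DNAJ-PKAc C, and 27 without both WT B and DNAJ-PKAc C. The count called lower was 0 throughout except 1 (Psmf1) without both. Over all genes 385 were called, against 974 by DESeq2, 199 with the replicate block, 77 to 2808 with 1 library left out and 5336 without both. The median log2 difference of the proteasome genes was 0.35, 0.34 with the replicate block, 0.31 with RLE and 0.27 with upper-quartile factors, and with 1 library left out it ran from 0.21 (without WT B) to 0.49 (without DNAJ-PKAc C). Psmd11 (0.33) and Psme4 (0.27) changed sign and passed the threshold without both libraries. 11 members changed sign in at least 1 of 15 alternatives, and none of the 9 others was called with its sign changed. Psmb8 kept its sign in all 15 and lost its call in 4. The causes of these changes were not tested. The SE of the members, 0.15 to 0.47 on the log2 scale, limits what 3 against 3 libraries can separate.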
